A study of Mus musculus with 12 samples.

Results

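The regions described here carried an ESRRB peak in a line of mouse embryonic stem cells without Nanog and none in a line with Nanog. ESRRB, a nuclear receptor with no known natural ligand, was followed by ChIP-seq, in which an antibody pulls down the protein with its DNA and reads pile up where it sat. A region of the deposited count table was a member if it overlapped by at least 1 bp a peak of the list without Nanog and no peak of the list with Nanog, with mitochondrial rows left out. There were 691 members among 86201 regions, or 2.07% of the 33306 regions on the list without Nanog. Members were thus chosen by peak lists made from the libraries whose counts follow, and every difference between the lines at them is a description and carries no test.

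The line with Nanog is labelled NanogKO:Esrrb:Nanog (44JN) and the line without Nanog is labelled NanogKO:Esrrb (44J). Both names carry the Nanog knockout and Esrrb, so the lines differ by name in Nanog alone. The cell line field reads N{delta}:cE:iN for all 12 samples of both lines, so it does not tell them apart. Cells were untreated and grew in serum and leukaemia inhibitory factor. Each line had 3 ESRRB ChIP libraries, lettered A to C in the table, and 3 input libraries that were not analysed here. Counts in regions summed to 6689166, 8382646 and 7834773 with Nanog and to 2734338, 3600055 and 5193707 without Nanog. The labels do not say how the Nanog line was made, whether each line is 1 clone or whether libraries came from separate cultures. The counts measure ESRRB on DNA and not gene expression, so they check neither the cell type nor the Nanog label.

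As background, ESRRB binds a short DNA element, AAGGTCA, often as a single receptor, and in embryonic stem cells it occupies enhancers and promoters together with factors such as NANOG, OCT4 and SOX2. NANOG is a homeodomain factor of the same network. In Nanog-null cells, forced ESRRB is known to sustain self-renewal.

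Few members lay at promoters, and these are the places where the bases under a member could be read. In RefSeq promoter windows (GRCm38.p6, the mm10 assembly), which run from 250 bases before to 50 after a transcription start, 6 members overlapped 7 windows. The bases shared by member and window are shown for 5 genes, on the strand of the gene, with AAGGTCA or its first 6 letters (on either strand) in capitals. Miip, a cell migration inhibitor gene, chr4:147868842-147868918, lies opposite Fv1, a retrovirus restriction gene, so both windows hold the same 77 bases. Rbpjl, a relative of the Notch effector RBPJ, lies at chr2:164403066-164403221, and Egfl7, a secreted factor of blood vessels, at chr2:26586468-26586685. Zfp385a, a zinc finger gene, lies at chr15:103334289-103334352 and 2610528J11Rik at chr4:118527025-118527132.
Miip: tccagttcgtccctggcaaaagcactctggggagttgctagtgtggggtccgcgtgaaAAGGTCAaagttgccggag
Rbpjl: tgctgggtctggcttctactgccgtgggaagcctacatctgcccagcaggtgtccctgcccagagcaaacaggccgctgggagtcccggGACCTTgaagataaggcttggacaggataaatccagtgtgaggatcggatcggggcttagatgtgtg
Egfl7: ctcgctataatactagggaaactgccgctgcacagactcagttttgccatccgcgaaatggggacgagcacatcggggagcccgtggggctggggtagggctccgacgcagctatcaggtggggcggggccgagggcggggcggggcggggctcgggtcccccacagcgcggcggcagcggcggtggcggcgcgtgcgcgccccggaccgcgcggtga
Zfp385a: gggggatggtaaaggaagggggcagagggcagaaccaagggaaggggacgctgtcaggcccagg
2610528J11Rik: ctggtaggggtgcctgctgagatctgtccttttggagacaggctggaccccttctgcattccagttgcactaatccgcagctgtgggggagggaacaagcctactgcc

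The full AAGGTCA stood once in the member at Miip and Fv1, and in none of the other stretches shown. Rbpjl held the first 6 letters, AAGGTC, read on the opposite strand as GACCTT. Counted over whole windows and on both strands, AAGGTCA was in 2 of the 7 windows, which are the same region seen from both genes. It was in 4.72% of all 32851 promoter windows, in 9.30% of the 3538 windows overlapping a region of both lists and in 4.96% of the 4013 windows overlapping a region of the list with Nanog only. The shorter AAGGTC, which lies inside AAGGTCA, was in 4 of the 7 windows, against 12.3% of all windows. These 4 again count Miip and Fv1 separately. In the bases shared with a member it stood only at Miip and Fv1 and at Rbpjl. With 6 regions these are descriptions of single places. The sixth member, at Zfp335os, shared 15 bases with the window and is only named.

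Signal at these promoters is given for some of the members. The median over all regions was 6.42 to 6.6 CPM with Nanog and 6.67 to 6.73 CPM without Nanog. The member at Miip and Fv1 held 1.02, 1.06 and 1.02 CPM (reads per 1000000 reads in regions, with TMM scaling by edgeR) with Nanog, and 2.61, 2.24 and 2.75 CPM without Nanog. At 2610528J11Rik the values were 1.46, 1.53 and 2.42 CPM with Nanog and 9.32, 4.77 and 8.04 CPM without Nanog, a log2 fold change (with over without Nanog, as throughout) of -2.0 ± 0.31 (SE). The libraries of the lines did not overlap at either place, as at 598 of all 691 members, and nothing is read from this. Rbpjl held 3.79, 3.42 and 3.95 CPM with Nanog and 7.46, 7.01 and 3.33 CPM without Nanog. There the lines did overlap, because library C without Nanog was low. Egfl7 held 3.65, 2.24 and 1.02 CPM with Nanog and 5.59, 5.33 and 3.53 CPM without Nanog, and its lines overlapped too.

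Across all 691 members, signal was weak even without Nanog. The median member had 2.33, 2.48 and 2.80 CPM in libraries A, B and C with Nanog, and 7.08, 5.61 and 5.10 CPM without Nanog. These medians rest on 16, 21 and 22 reads with Nanog and on 19, 20 and 26 reads without Nanog, and 20 reads have an exact Poisson interval of 12.2 to 30.9 (95%, counting error only). Members were at the weak end of the list without Nanog: 2.27% of the regions on that list were at or below the median of the members, and 16 members were above the median of the regions in both lists. Members were also narrow, with a median width of 205 bp against 526 bp for regions in both lists and 278 bp for regions in the list with Nanog only. Divided by width, members held a median of 13.4 CPM per kb with Nanog and 31.2 CPM per kb without Nanog. Regions in both lists held 26.6 and 29.9 CPM per kb. Such values run high in narrow regions. A member of 1 bp in Togaram2 held 7, 9 and 4 reads with Nanog and 4, 4 and 4 reads without Nanog. Values per kb of regions of unlike width are therefore not comparable, and nothing is read from them.

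**Figure D1:**
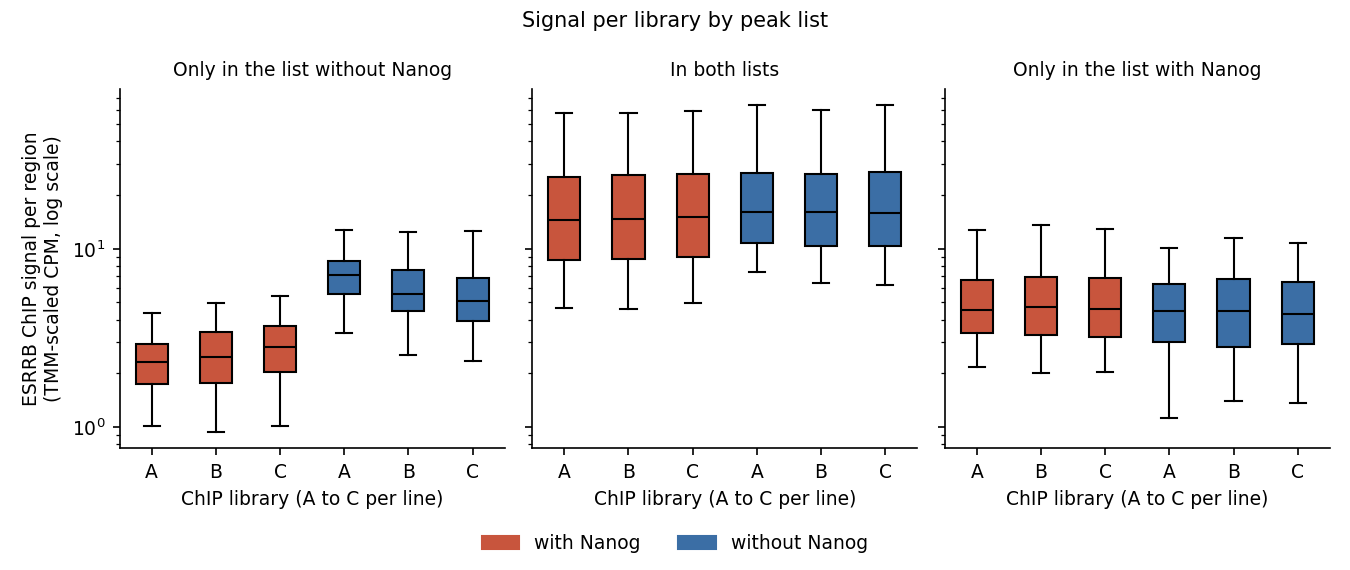
ESRRB ChIP signal per region in TMM-scaled CPM (log axis) in each library, for members, regions in both lists and regions in the list with Nanog only; boxes give the quartiles and median over regions, whiskers the 5th and 95th percentiles. Member medians are 2.33 to 2.80 CPM with Nanog and 5.10 to 7.08 CPM without Nanog. For regions in both lists they are 14.4 to 15.0 CPM with Nanog and 15.9 to 16.0 CPM without Nanog. For regions in the list with Nanog only they are 4.52 to 4.72 CPM with Nanog and 4.31 to 4.49 CPM without Nanog.

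Members took 0.221 ± 0.012% of the counts in all non-mitochondrial regions with Nanog and 0.525 ± 0.073% without Nanog (SD, n = 3 per line). Of the 691 members, 670 had counts enough to be tested across the whole table, and all 21 that did not were under 100 bp wide. The median log2 fold change of the tested members was -1.17, with quartiles of -1.51 and -0.88, against -0.01 over all 84892 regions tested. By the quasi-likelihood test of edgeR with Benjamini-Hochberg adjustment over all regions and a threshold of 0.05, 532 members were called lower with Nanog, 0 were called higher and 138 were not called. Over all regions tested, 9.78% were called lower and 9.42% higher. The counts behind these calls before scaling are described next. In 598 of the 691 members all 3 libraries with Nanog were below all 3 without Nanog, as in 16.6% of all regions. The choice of members fixes this direction, so nothing is read from these counts.

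Before scaling, reads in members differed less between the lines than their CPM. Members summed to 14220, 18103 and 18348 reads with Nanog and to 16499, 18401 and 23919 reads without Nanog, a ratio of 0.861. Reads in all non-mitochondrial regions had a ratio of 1.99, those in regions of both lists 1.88 and those in regions of the list with Nanog only 2.32. The median region had 44, 56 and 51 reads with Nanog and 18, 24 and 34 reads without Nanog, while the median member had nearly the same number in each line. In 414 members (59.9%) the libraries with Nanog held fewer reads in sum, and in 92 (13.3%) each of them held fewer than each library without Nanog, against 1.86% and 0.157% of all regions. Of the 532 members called lower, 404 (75.9%) held fewer reads in sum with Nanog, and in 91 each library with Nanog held fewer than each without Nanog, with a ratio of summed reads of 0.794. Summed over members, the lower CPM with Nanog thus combines somewhat fewer reads with 1.99 times as many reads in all regions. Sequencing depth outside regions was not used, so whether ESRRB at a member was lower in itself cannot be told apart from more of the reads falling in other regions.

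**Figure D2:**
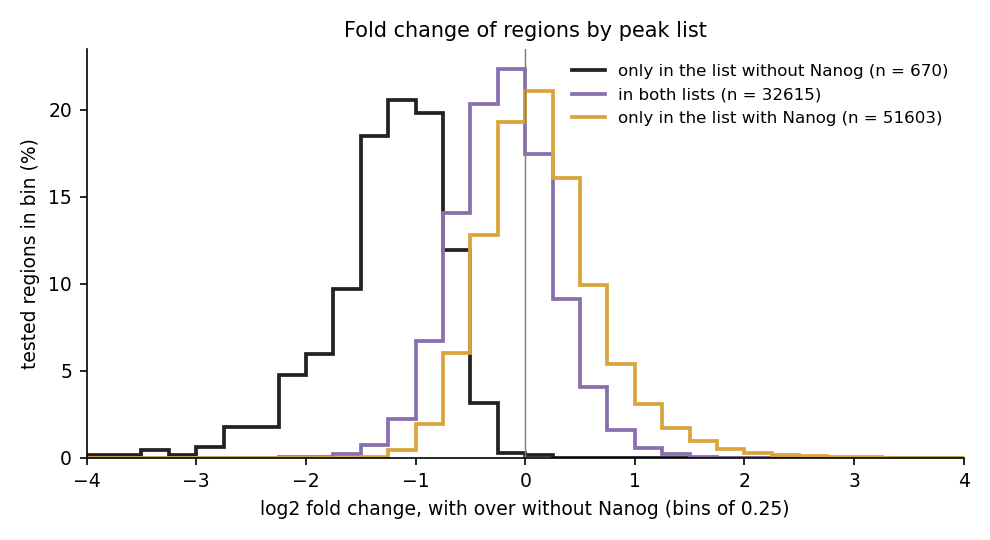
Percent of tested regions in each bin of log2 fold change, with over without Nanog, for members (670), regions in both lists (32615) and regions in the list with Nanog only (51603). The median is -1.17 for members, -0.19 for regions in both lists and 0.11 for regions in the list with Nanog only.

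The list rule captured a small part of the regions that were lower with Nanog. Of 8306 regions called lower, 6.41% were members, while 6778 were in both lists. Among regions in both lists, 507 had a log2 fold change at or below the median of the members. Regions on either side of the rule had like values. The member inside Efhb, 1 bp from a peak of the list with Nanog, held 2.2, 3.30 and 2.42 CPM with Nanog and 7.08, 6.45 and 4.71 CPM without Nanog. The members in Zfp335 and near Tmem231, also 1 bp from such a peak, averaged 1.22 and 1.68 CPM with Nanog and 2.02 and 3.08 CPM without Nanog. Just outside the rule, the region in Gtse1 overlapped the list with Nanog by 10 bp and held 3.35, 1.89 and 2.80 CPM with Nanog and 5.59, 6.73 and 6.86 CPM without Nanog. Those near Nsd2 and Tmem64, with overlaps of 27 and 31 bp, averaged 1.99 and 3.20 CPM with Nanog and 3.85 and 7.45 CPM without Nanog.

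The 3 members with the most signal had nearly the same number of reads in every library, whatever its depth. They lay at chr2:98666424-98667157, chr2:98662397-98662890 and chr9:35305229-35305587 (mm10). The member at chr2:98666424-98667157 held 1252, 1240 and 1232 reads with Nanog and 1260, 1262 and 1254 reads without Nanog. The member at chr2:98662397-98662890 held 882, 886 and 887 reads with Nanog and 897, 885 and 892 reads without Nanog. The member on chromosome 9 held 601, 591 and 596 reads with Nanog and 596, 597 and 592 reads without Nanog. Of all 86197 non-mitochondrial regions these 3 were the only ones whose highest count was under 1.1 times the lowest.

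Their CPM and log2 fold changes of -1.13, -1.12 and -1.1 therefore follow from library size and are no measure of a difference in ESRRB. The strongest, for example, had 183, 146 and 157 CPM with Nanog and 470, 354 and 246 CPM without Nanog. Within the line without Nanog this is the inverse order of the libraries' reads. The 4 mitochondrial rows, which are left out of the members, were nearly as flat, at 2887, 2436 and 2454 reads with Nanog and 2906, 2974 and 2946 reads without Nanog. Why the counts are level was not tested. Those on chromosome 2 lie over 1000 kb from the nearest protein-coding gene, Lrrc4c, a netrin-G ligand gene, and that place is known in mm10 for drawing excess reads in many assays. The 3 held 14.8% to 19.2% of the reads of all members with Nanog and 11.4% to 16.7% without Nanog. Without them the share of counts was 0.185 ± 0.014% with Nanog and 0.449 ± 0.049% without Nanog, and the median log2 fold change stayed at -1.17.

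**Figure D3:**
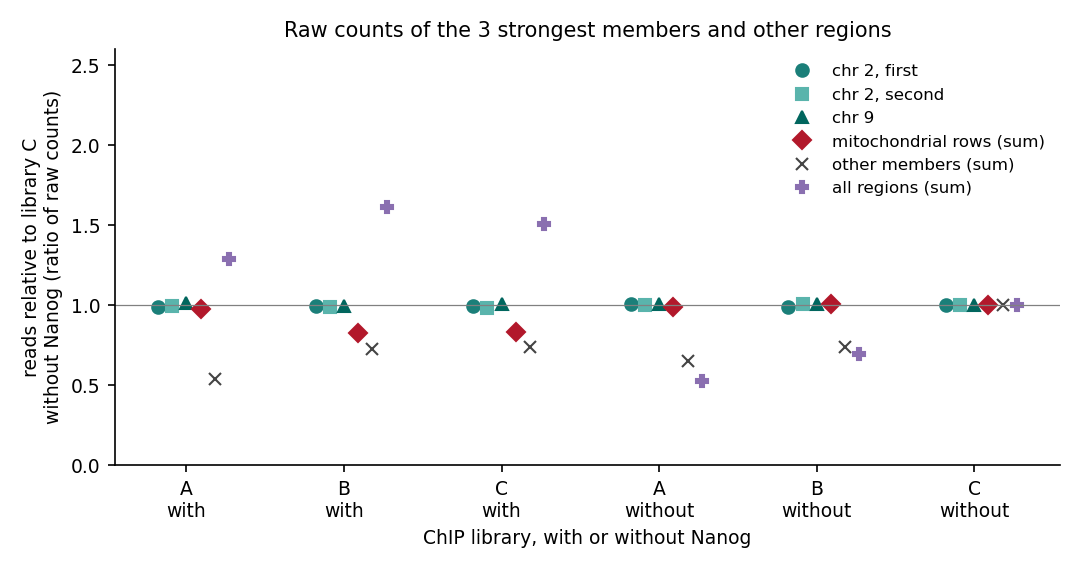
Raw reads in each library divided by those in library C without Nanog, for the 3 strongest members (chromosome 2, first at 98662397 and second at 98666424, and chromosome 9), the summed mitochondrial rows, the other 688 members and all regions. The 3 stay near 1 in every library (1232 to 1262 reads at the strongest), while reads in all regions run from 2731432 in library A without Nanog to 8380210 in library B with Nanog.

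The libraries without Nanog were not equal at the members either. Library A without Nanog, the least deep, was the highest of its line at 427 of 691 members (61.8%), B at 158 and C at 106. Library A was the highest without Nanog at 37.2% of the regions in both lists and at 30.1% of those in the list with Nanog only. With Nanog, library C was the highest at 305 members (44.1%) and A at 169. Library A also had the fewest reads in regions, and its part in the choice of members was not tested. Without library A of that line, the share of counts without Nanog was 0.486%, the median log2 fold change -1.05 and the count of members called lower 407 of 680 tested.

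Taking the largest decreases among called members at or above the median member signal, with no overlap between lines and 1 region per gene, 10 regions had log2 fold changes from -3.60 to -2.51. Some weaker members outside this choice had larger decreases, down to -3.79. Of these, 2 lay inside the gene that names them and 8 outside it, at 4.82 kb (Zfp341) to 178 kb (Adgrl3), and no link to the gene's activity was measured. Near Ripk4, a kinase of epidermal differentiation, chr16:97711425-97711739 held 1.60, 0.35 and 1.53 CPM with Nanog and 14.5, 11.8 and 15.3 CPM without Nanog, a log2 fold change of -3.60 ± 0.32. This region lies 30.4 kb outside the gene, and its raw reads differed in the same way, at 11, 3 and 12 with Nanog and 39, 42 and 78 without Nanog. That does not hold for every member, since 414 of 691 held fewer reads in sum with Nanog. A second member near Ripk4, at chr16:97717602-97718213, held 3.21, 1.89 and 4.20 CPM with Nanog and 14.9, 13.5 and 14.5 CPM without Nanog.

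Adgrl3 encodes a latrophilin, an adhesion receptor of neurons. The member 178 kb from it, at chr5:82005935-82006401, held 4.23, 1.77 and 3.82 CPM with Nanog and 20.9, 24.7 and 26.9 CPM without Nanog (log2 fold change -2.92 ± 0.24). Sdr9c7, a dehydrogenase gene of the skin barrier, had a member 10.6 kb away, at chr10:127922097-127922538, with 2.92, 4.01 and 5.61 CPM with Nanog and 23.9, 28.9 and 30.0 CPM without Nanog. Near Crb2, a cell polarity gene, chr2:37756063-37756352 held 1.90, 1.65 and 1.02 CPM with Nanog and 12.7, 7.29 and 11.8 CPM without Nanog. Every library without Nanog lay above every library with Nanog in these regions, which was a condition of their choice.

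Car4, which encodes a membrane-bound carbonic anhydrase, had a member 5.01 kb away that averaged 1.58 ± 0.52 CPM with Nanog and 10.1 ± 2.7 CPM without Nanog (SD, n = 3 per line). The member near Zfp341, a zinc finger gene whose human counterpart is known to activate STAT3 transcription, averaged 1.94 ± 0.75 CPM with Nanog and 12.3 ± 0.69 CPM without Nanog. Pirt, a regulator of TRP channels, had 2.15 ± 0.56 CPM with Nanog and 12.7 ± 0.54 CPM without Nanog at a member 74.6 kb away. Opcml, a cell adhesion gene, and Pde4dip, a centrosome and Golgi gene, held their members inside the gene, with log2 fold changes of -2.51 each.

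**Figure D4:**
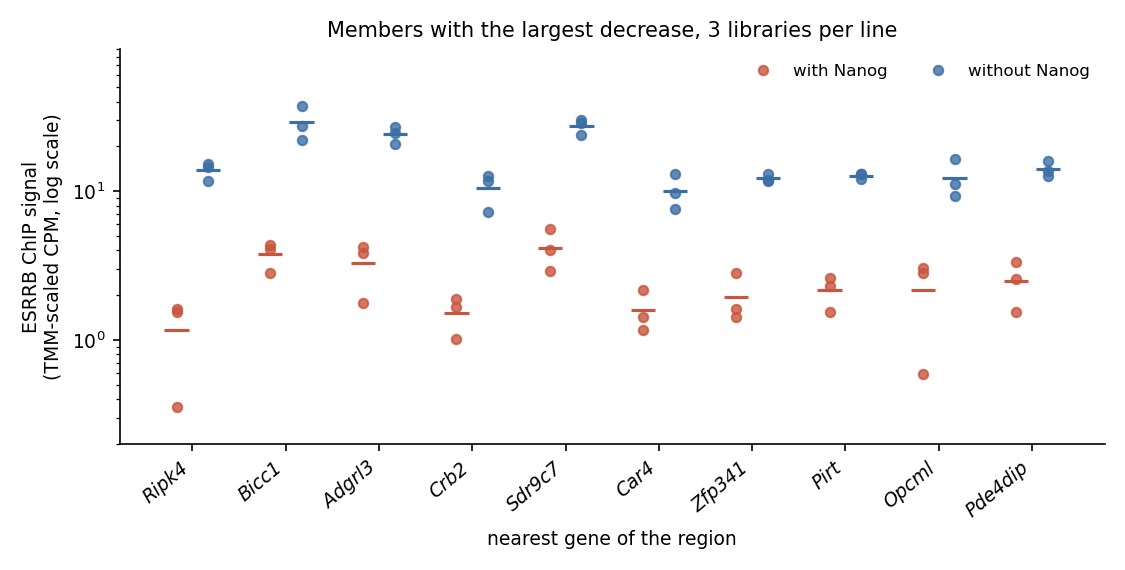
ESRRB ChIP signal in TMM-scaled CPM (log axis) at the 10 members with the largest decrease among called members at or above the median member signal, with no overlap between lines and 1 per gene, named by the nearest gene; points are the 3 libraries of each line and bars their mean. At Ripk4 the libraries are at 0.35 to 1.60 CPM with Nanog and 11.8 to 15.3 CPM without Nanog. That the lines do not overlap was a condition of the choice.

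The tenth region, near Bicc1, an RNA-binding protein gene, belongs to the densest group of members. Within 1 Mb windows, 435 of 550 windows with members held 1 member, and the most was 5, all at chromosome 10 between 70851471 and 70856907. These 5 averaged 1.14 to 6.96 CPM with Nanog and 6.65 to 38.6 CPM without Nanog, with log2 fold changes from -2.98 to -2.50. They lay side by side, 66.5 to 71.0 kb from Bicc1. A peak of the list with Nanog lay 340 bp from the strongest of them. Whether they are separate sites was not tested. The next windows held 4 members each, both on chromosome 1. One held members in Mroh2a, near Glrp1 and a pair near Arl4c, a small GTPase gene, with log2 fold changes from -1.74 to -0.95. The other held members in Nvl, near Ccdc121 and a pair in Enah, an actin regulator gene, with log2 fold changes from -1.29 to -0.63 for the 3 tested. The only other gene with at least 3 members within 100 kb was Rab7, a GTPase of late endosomes, with 3 members inside the gene at 0.761 to 2.84 CPM with Nanog and 2.70 to 6.10 CPM without Nanog.

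Other members with much signal without Nanog were near Kcna6 and Gstt2. Kcna6 encodes a potassium channel, and its member at chr6:126763462-126763811 held 4.96, 3.07 and 5.61 CPM with Nanog and 22.0, 14.9 and 26.3 CPM without Nanog. Gstt2, a glutathione transferase gene, had 3.50, 4.01 and 6.5 CPM with Nanog and 23.5, 13.2 and 24.1 CPM without Nanog at chr10:75844288-75844614. In both, library B was the lowest without Nanog. At the other end, the member with the highest log2 fold change, in Ctr9, a subunit of the PAF transcription elongation complex, held 5.69, 5.66 and 3.19 CPM with Nanog and 6.34, 4.49 and 3.73 CPM without Nanog (0.06 ± 0.30). The members in Itgb1, an integrin gene, and Atp6v1c1, a proton pump subunit gene, followed at -0.21 ± 0.31 and -0.24 ± 0.30, so at these 3 the lines overlapped.

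Position was not used by the rule. For 27 members, or 3.91%, either end of a coding gene was at most 1 kb from the centre (exact binomial interval 2.59% to 5.63%, counting error only). The same share was 12.7% of the regions in both lists, 13.9% of those in the list with Nanog only and 13.2% of all regions tested outside the mitochondrial genome. Among regions in both lists that were called lower with Nanog it was 6.92%. The promoter table gives transcription starts for 17492 of 21900 protein-coding genes and none on chromosome 18. Within 1 kb of such a start there were 17 members (2.46%). The share was 9.63% of the regions in both lists and 10.7% of those in the list with Nanog only. Away from gene ends, 260 members (37.6%) lay inside a gene, 326 (47.2%) between genes within 100 kb and 78 (11.3%) farther off, against 41.0%, 36.5% and 9.84% of the regions in both lists. Regions are not independent and no test of these shares was made.

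Of the members at gene ends, the 6 with the highest mean CPM without Nanog are described. Oaz2 encodes an antizyme of polyamine synthesis, and the member at its end held 1.75, 1.06 and 1.53 CPM with Nanog and 8.95, 6.73 and 7.84 CPM without Nanog (log2 fold change -2.43 ± 0.30). At Mon1b, part of the complex that activates RAB7, the values were 2.62, 3.89 and 2.29 CPM with Nanog and 11.2, 14.9 and 9.22 CPM without Nanog. Rhox5, a homeobox gene of the X-linked reproductive cluster, had a member 0.183 kb away with 2.62, 4.60 and 3.82 CPM with Nanog and 9.69, 8.13 and 6.67 CPM without Nanog. Members at Them5, a thioesterase gene, Tardbp, which encodes the RNA-binding protein TDP-43, and Olfr1051, an olfactory receptor gene, had log2 fold changes of -1.31, -1.35 and -1.0. The lines did not overlap at any of these 6, as at 598 of all 691 members, and nothing is read from this.

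Leaving out the Y chromosome, which had 0 members in 5 regions, members per chromosome ranged from 0.513% of the regions of chromosome 4 (31 members) to 1.23% on chromosome 6 (60 members) and 1.30% on the X chromosome (23 members). The median log2 fold change of the regions that were not members was -0.02 on chromosomes 4 and 6 and 0.03 on the X chromosome, so the other regions of these chromosomes lay near 0.

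The 11 gene lists of the pluripotency network, its exits and its signals covered few members. Inside or within 50 kb of their 157 genes lay 13 members at 12 genes, or 0.898% of the 1448 regions there. Over the whole table members were 0.802% of regions. Of the 13, 10 were called lower, beside 79.4% of all tested members, a share the rule fixes. No member lay among the 96, 40 and 60 regions at the genes of the trophoblast, mesendoderm and neuroectoderm lists. With members at 0.802% of all regions, nothing is read from this.

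Among naive pluripotency genes, Klf5, a transcription factor of the naive state, had 2 members. One held 3.21, 2.24 and 3.06 CPM with Nanog and 5.97, 7.85 and 4.90 CPM without Nanog, and the other averaged 5.65 ± 1.4 CPM with Nanog and 9.07 ± 0.70 CPM without Nanog (SD, n = 3 per line). The lines did not overlap in either, as at 598 of all 691 members, and nothing is read from this. Raw reads at the first were 22, 19 and 24 with Nanog and 16, 28 and 25 without Nanog. At the other they were 31, 61 and 41 with Nanog and 24, 35 and 43 without Nanog. Klf5 had 15 other regions tested, of which 2 were called lower and 2 higher, so the members do not stand for the gene.

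General pluripotency genes held 3 members. Inside Lin28a, an RNA-binding regulator of let-7 microRNAs, a member held 4.37, 2.36 and 3.19 CPM with Nanog and 9.32, 14.9 and 10.0 CPM without Nanog, a log2 fold change of -1.80 ± 0.27, while 0 of its 5 other regions tested were called either way. Near Sall4, a zinc finger factor that is also on the LIF and STAT3 list, the values were 4.23, 1.42 and 4.97 CPM with Nanog and 13.8, 4.77 and 13.3 CPM without Nanog. Library B was the lowest of each line there, and B without Nanog fell below C with Nanog. The member beside Tdgf1, the gene of the NODAL co-receptor CRIPTO, averaged 4.06 ± 1.4 CPM with Nanog and 5.99 ± 1.3 CPM without Nanog, and its lines overlapped. Raw reads at Lin28a were 30, 20 and 25 with Nanog and 25, 53 and 51 without Nanog. At Sall4 they were 29, 12 and 39 with Nanog and 37, 17 and 68 without Nanog. At Tdgf1 they were 33, 42 and 19 with Nanog and 20, 20 and 25 without Nanog.

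Signalling genes held a few more. The member 1.29 kb from Fgfr3, an FGF receptor gene, held 2.04, 2.48 and 1.53 CPM with Nanog and 5.59, 8.69 and 5.29 CPM without Nanog. Near Stat3, the effector of leukaemia inhibitory factor, a member 2.82 kb away held 4.37, 2.12 and 4.33 CPM with Nanog and 11.9, 6.45 and 7.26 CPM without Nanog. Inside Lef1, a transcription factor of WNT signalling, the values were 3.21, 3.54 and 4.46 CPM with Nanog and 12.3, 5.33 and 7.26 CPM without Nanog. The lines did not overlap at these 3, as at 598 of all 691 members, and nothing is read from this. The member near Tcf7l2, a related WNT factor, averaged 3.13 ± 1.6 CPM with Nanog and 5.69 ± 1.9 CPM without Nanog and overlapped. Raw reads at Fgfr3 were 14, 21 and 12 with Nanog and 15, 31 and 27 without Nanog. At Stat3 they were 30, 18 and 34 with Nanog and 32, 23 and 37 without Nanog. At Lef1 they were 22, 30 and 35 with Nanog and 33, 19 and 37 without Nanog. At Tcf7l2 they were 9, 34 and 32 with Nanog and 20, 21 and 19 without Nanog.

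Rarb, a retinoic acid receptor gene, and Ncoa3, a nuclear receptor coactivator known to work with ESRRB in mouse embryonic stem cells, each held 1 member inside the gene, with log2 fold changes of -1.07 ± 0.29 and -1.09 ± 0.31. Raw reads at Rarb were 16, 24 and 26 with Nanog and 20, 25 and 22 without Nanog. At Ncoa3 they were 12, 19 and 15 with Nanog and 11, 20 and 17 without Nanog. Sparc, a matrix protein gene of the primitive endoderm, had a member 19 kb away at 2.66 ± 1.3 CPM with Nanog and 6.91 ± 1.7 CPM without Nanog. Its raw reads were 18, 12 and 31 with Nanog and 20, 18 and 42 without Nanog. The member in Dnmt3a, a de novo DNA methyltransferase gene, was 80 bp wide and lay 8 bp from a peak of the list with Nanog. It averaged 1.13 ± 0.16 CPM with Nanog and 2.55 ± 0.80 CPM without Nanog. Its raw reads were level, at 9, 9 and 8 with Nanog and 9, 9 and 9 without Nanog. Its lower CPM with Nanog therefore follows from library size and is no measure of a difference in ESRRB.

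Regions near members were not chosen by the rule, though being no member keeps out those that the list with Nanog lacks. The nearest other region lay a median of 5.11 kb away, and 441 members had one within 10 kb. Of 1073 tested regions within 10 kb of a member, 210 (19.6%) were called lower and 43 (4.01%) higher with Nanog (edgeR quasi-likelihood, Benjamini-Hochberg adjustment), against 9.23% and 9.50% of all tested regions that were not members. Among those in both lists, 185 of 507 (36.5%) were called lower and 11 higher, against 20.8% and 7.40% of all regions in both lists. Leaving out those within 1 kb, whose reads could come from the same fragments, 145 of 434 (33.4%) were called lower. By distance, regions in both lists were called lower in 42.9% of cases up to 5 kb from a member, 28.0% from 5 to 10 kb, 22.3% from 10 to 50 kb and 20.4% beyond 200 kb. Regions in the list with Nanog only were called lower in 6.80% of cases up to 5 kb and in 1.84% from 5 to 10 kb. Without library B with Nanog, 134 regions within 10 kb were called lower in place of 210.

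**Figure D5:**
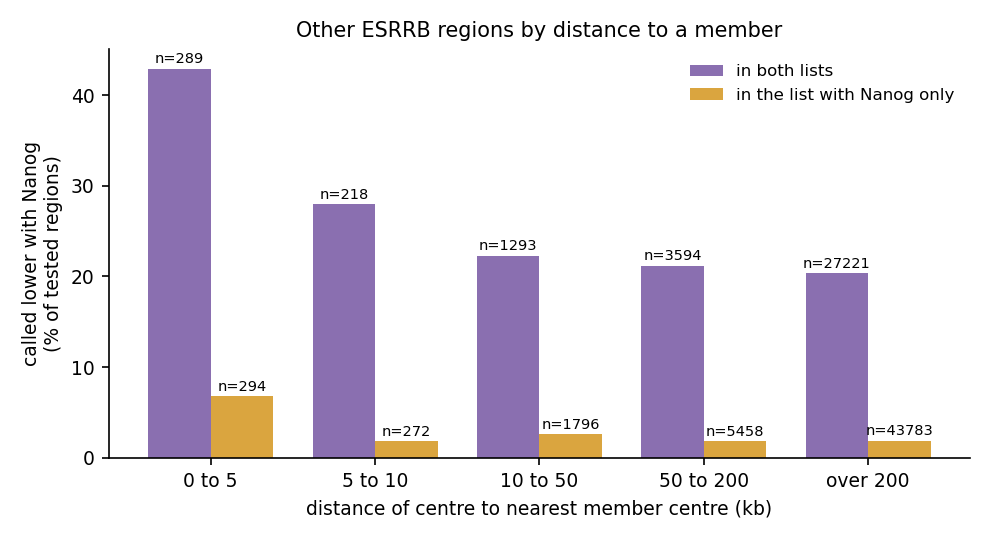
Percent of tested regions called lower with Nanog (edgeR) by the distance in kb from the region's centre to the nearest member centre, for regions in both lists and in the list with Nanog only; n is the number of tested regions in each bar. Regions in both lists are at 42.9% up to 5 kb and at 20.4% beyond 200 kb.

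Some members sat beside a region that moved the other way. Of the 441 members with another region within 10 kb, the nearest such region was called lower with Nanog at 110 and higher at 19, and 13 of the 19 members were themselves called lower. Over all tested regions that were not members, 9.50% were called higher. Among the 3 of these with the largest increase were those inside Kctd3 and near Ada. Near Ada, which encodes adenosine deaminase, a member 27.1 kb from the gene averaged 3.62 CPM with Nanog and 9.62 CPM without Nanog, and a region 1759 bases away averaged 5.0 ± 1.9 CPM with Nanog and 1.44 ± 0.58 CPM without Nanog. At Kctd3 the member averaged 1.51 CPM with Nanog and 5.02 CPM without Nanog, and the region 6647 bases away 4.55 ± 0.38 CPM with Nanog and 1.1 ± 0.61 CPM without Nanog. Both were chosen after their values were seen.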

How the data were processed

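The deposited table gives read counts per region for 6 ESRRB ChIP libraries, unnormalised, and the deposited peak lists give positions alone. MACS2, bedtools 2.26.0, Bowtie2, deepTools, bcl2fastq 2.19.1, SAMtools 1.4.1 and the build mm10 stand in the submitters' processing notes. Their settings, the read counter, any removal of duplicate reads and each sample's fixation are not stated. Columns were matched to lines, not to replicate numbers, since they carry letters. Members, gene lists and tests were chosen with earlier results of these data known.

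All 86201 rows entered edgeR 4.0.16 (R 4.3.3): filterByExpr, TMM, glmQLFit and glmQLFTest with the line alone, and Benjamini-Hochberg adjustment over 84892 rows at 0.05. The SE of a log2 fold change was calculated back from the test, as its absolute value over the square root of the F statistic. The steps were tested on simulated data. P-values measure the spread between libraries, which may be technical. Library totals outside regions were not used, so changes are relative to other regions. Replicates were no duplicates (chi-square per degree of freedom 1.33 to 2.53). Genes are the nearest protein-coding RefSeq genes of GRCm38.p6. Positions are 1-based. 1 region beside a member is not reported here.

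The text names the 10 members highest without Nanog, the 10 largest decreases among called members at or above the median member signal without overlap between lines (1 per gene), up to 3 per gene list, 6 at gene ends by CPM without Nanog, 3 on each side of the overlap rule, the 3 highest fold changes and the 3 densest 1 Mb windows. No cell type markers were used.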

Additional observations from a re-analysis of the deposited data

How the results depend on the processing

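Against 532 members called lower with Nanog, DESeq2 1.42.0 called 355, column totals 514, no count filter 535, autosomes alone 505 and members of at least 100 bp, an alternative added after seeing the data, 516. A mean count of at least 50 left 12 members tested, all 12 called lower, with a median log2 fold change of -2.19. These 12 include the 3 strongest members, whose fold changes follow from library size and are no measure of a difference in ESRRB. Leaving out 1 library gave 399 to 515 members called lower, with 335 members called lower in every such fit, and medians from -1.28 to -1.05. No fit called a member higher (0 by edgeR and 0 by DESeq2). The neighbours called lower, 210 within 10 kb, numbered 545 within 50 kb, 149 with DESeq2 and 134 to 212 with 1 library left out. Same-letter libraries were not taken as pairs, since no label says what a letter marks and their deviations correlated at 0.08, 0.22 and 0.13; a block by letter called 570 members and 259 neighbours lower, with a median log2 fold change of -1.17. The share of counts in members was 0.318% with Nanog and 0.710% without Nanog relative to regions of the list without Nanog, and 0.185% and 0.449% without the 3 strongest members, which was added after seeing the data. With 1 library left out it was 0.214% to 0.225% with Nanog and 0.486% to 0.558% without Nanog. Members at gene ends were 1.88% within 500 bp, 8.39% within 2 kb and 7.53% within 1 kb of any annotated gene. Members numbered 725 if a peak with Nanog had to cover at least 0.5 of a region, and 603 or 547 if none was allowed within 500 bp or 1 kb. Beyond the fewer regions or libraries that a setting leaves, the cause was not tested. All fits scale to reads in regions, so none bears on the raw counts, whose sum over members had a ratio of 0.861, with over without Nanog. At about 20 reads per member and library, differences smaller than the spread above could not be seen.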
